A study of Mus musculus with 22 samples.

Results

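Grin1, Grin2a, Grin2b, Grin2c, Grin2d and Grin3a encode subunits of the N-methyl-D-aspartate (NMDA) receptor, and their mRNA levels in the CA1 region of the mouse hippocampus are described here. These 6 genes were chosen by name, as family members, out of 23361 genes in the expression matrix. The choice was made with earlier results of these data known. The study asked how age and calorie restriction (CR) bear on CA1 gene expression. The libraries came from 22 wild-type female mice of a Swiss Webster x DBA/C57BL6 F1 background, with 1 library per mouse. AL-fed mice, which ate without restriction, contributed 5 libraries at 5 months and 6 at 15 months of age. CR mice, whose diet was cut back in carbohydrates only and given once a day in the morning, likewise contributed 5 libraries at 5 months and 6 at 15 months. Both diets were started at about the same age, so the older CR mice had been restricted for longer than the younger ones. Age and time under restriction cannot be told apart in CR mice. Replicates are numbered from 0, as in the labels. Some of the mice had also served as controls in other work, and which ones these were is not given in the sources used here. Levels are FPKM, fragment counts scaled to transcript length and to the number of mapped fragments in the library.

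NMDA receptors are glutamate-gated cation channels that open only when the membrane is also depolarized, and calcium entering through them starts long-term potentiation at CA1 synapses. Every receptor holds GluN1 subunits, which bind glycine or D-serine, joined with GluN2 subunits, which bind glutamate, or with GluN3 subunits, which also bind glycine. The GluN2 type sets how long the channel stays open, and in the forebrain GluN2A joins and partly replaces GluN2B as the young brain matures.

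All 6 genes were expressed in every library. Median FPKM over the genes of a library ranged from 2.51 to 3.10, and 18281 to 19175 genes were above 0. In AL-fed mice the median was 2.57 to 2.68 at 5 months and 2.72 to 3.10 at 15 months, without overlap. Results with a common median are given below. The study gives an average read depth over samples but not the depth of each library. The precision of every value below comes from the spread between mice. The fits of gene levels use a single spread per gene, taken over all 4 groups. Where groups differ in spread, an SE or interval is therefore not that of the compared mice alone. The SD of Grin2a was 53.8% of its mean in CR mice at 15 months and 15.8% in AL mice of that age. For Grin2b these were 38.8% and 9.65%.

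Grin1, which encodes the obligatory GluN1 subunit, had by far the highest level per length of the family. Among AL-fed mice at 5 months, its 5 libraries had 149.6, 153.0, 171.7, 171.2 and 158.5 FPKM, with a mean of 160.8 ± 10.2 (SD, n = 5). Grin2a, which encodes GluN2A, followed at 20.2 ± 3.21 FPKM (SD, n = 5). Grin2c, whose product GluN2C is best known from cerebellar granule cells, had 13.8 ± 0.718 FPKM (SD, n = 5). These are levels per length in whole CA1 tissue, not subunit amounts at synapses. Grin3a, which encodes the glycine-binding subunit GluN3A, had 10.5 ± 2.71 FPKM, and Grin2b, which encodes GluN2B, had 8.62 ± 2.20 FPKM (SD, n = 5 each). Grin2d was lowest of the 6, with 3.89 ± 0.398 FPKM (SD, n = 5), and its product GluN2D is found mainly in interneurons of the adult forebrain. Within a library, Grin1 was above 96.7% to 98.2% of all genes in the matrix, whereas Grin2d was above 51.4% to 64.3%. The remaining family gene, Grin3b, which is best known from motor neurons, was far lower, with group means from 0.192 to 0.315 FPKM.

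**Figure D1:**
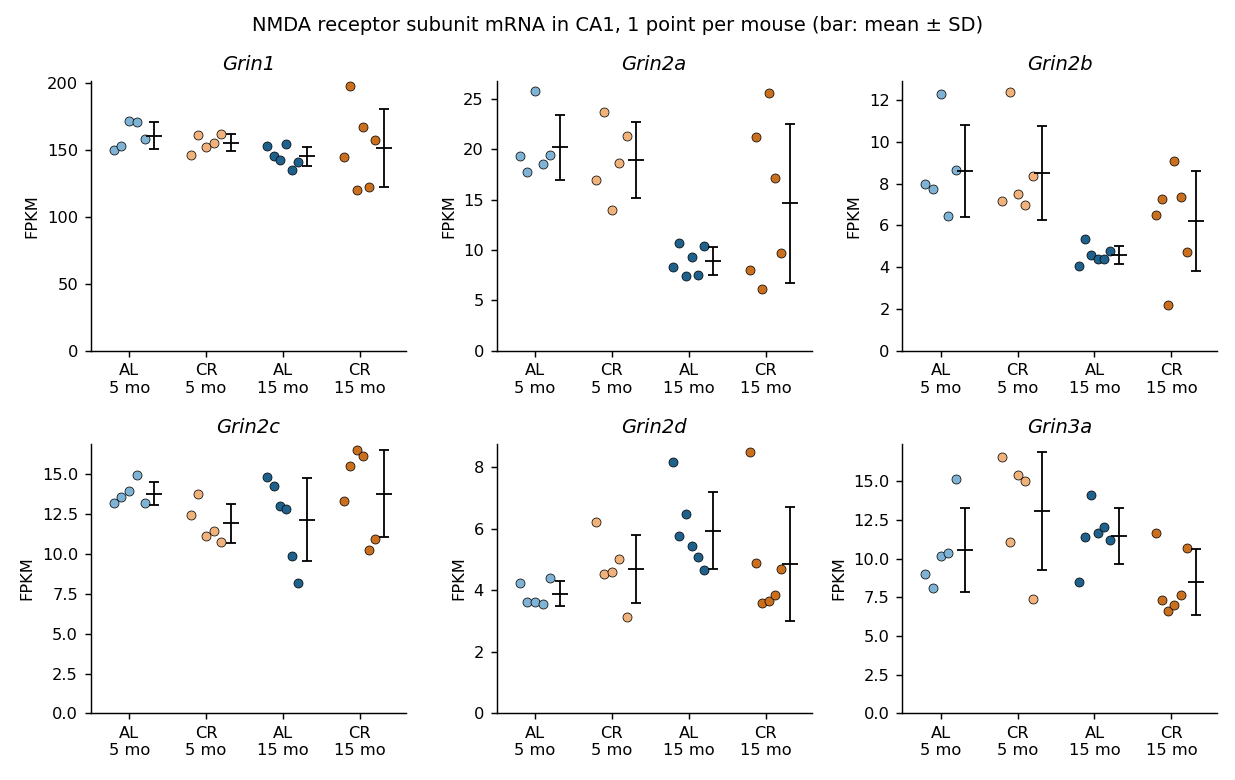
FPKM of the 6 NMDA receptor subunit genes, with 1 point per mouse and with bars for the mean ± SD of each diet and age group (AL or CR, 5 or 15 months). In the panels of Grin2a and Grin2b the 6 AL points at 15 months lie below all 5 AL points at 5 months, and the CR points at 15 months spread over a wide range.

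Age in AL-fed mice was compared first, 15 against 5 months. Grin2a and Grin2b fell, Grin2d rose, and Grin1, Grin2c and Grin3a did not pass the test. In all 3 genes that passed, the AL libraries of the 2 ages did not overlap. A log2 fold change is the limma estimate of the difference between group means of log2(FPKM + 0.1), and a gene was called at a Benjamini-Hochberg adjusted p under 0.05 over 16978 genes tested, in which all 6 subunit genes were included. By that rule 3 of 6 subunit genes were called. Grin3b, the family gene outside these 6, was not called (-0.08, limma adjusted p = 0.813). Over all genes tested 20.6% were called, 10.7% higher and 9.97% lower at 15 months, and 14.0% did not overlap between the ages.

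Grin2a had 19.3, 17.8, 25.8, 18.6 and 19.5 FPKM in the 5 AL-fed mice at 5 months. At 15 months its lowest, median and highest values were 7.40, 8.79 and 10.7 FPKM, a mean of 8.94 ± 1.41 (SD, n = 6). Every older AL library was therefore below every younger one, with a wide gap between the groups. Grin2a fell by 1.17 on the log2 scale (SE 0.28, 95% interval -1.74 to -0.60, limma adjusted p = 0.00579), to 0.445 of its level at 5 months. The call was kept in each of the 11 fits that left out 1 AL library, where the log2 fold change lay between -1.22 and -1.08.

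Grin2b had 7.99, 7.74, 12.3, 6.45 and 8.65 FPKM in AL-fed mice at 5 months. At 15 months its lowest, median and highest values were 4.06, 4.49 and 5.35 FPKM, with a mean of 4.59 ± 0.443 (SD, n = 6). These older libraries formed the tightest group of Grin2b values, and again none reached the lowest younger one. Grin2b fell by 0.87 on the log2 scale (SE 0.26, 95% interval -1.40 to -0.34, limma adjusted p = 0.0214), to 0.548 of its level at 5 months. Without AL 5 months replicate 2, the library with 12.3 FPKM, Grin2b changed by -0.73 and lost its call (adjusted p = 0.0706).

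Grin2d moved the other way. Its AL libraries at 5 months had 4.24, 3.61, 3.64, 3.57 and 4.40 FPKM, and at 15 months the lowest, median and highest were 4.65, 5.61 and 8.16 FPKM. The lowest older library was just above the highest younger one. Grin2d rose by 0.58 (SE 0.20, 95% interval 0.17 to 0.98, limma adjusted p = 0.0410), which is 1.49 times its level at 5 months. This call was near the threshold and was lost in 9 of 11 fits that left out 1 library, being kept only without AL 15 months replicate 4 or replicate 5. Over these fits the adjusted p ranged from 0.0344 to 0.0920 and the log2 fold change from 0.48 to 0.64.

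The other subunit genes did not pass the test, and their libraries overlapped between the ages. Grin1 averaged 145.2 ± 7.42 FPKM (SD, n = 6) at 15 months, and its difference was -0.15 (SE 0.10, adjusted p = 0.290). Grin2c averaged 12.2 ± 2.59 FPKM, with a difference of -0.21 (SE 0.14, adjusted p = 0.314). Its older AL libraries ran from 8.18 to 14.8 FPKM, a wider range than the 13.2 to 14.9 FPKM of the younger ones. Grin3a averaged 11.5 ± 1.81 FPKM, with a difference of 0.14 (SE 0.20, adjusted p = 0.661). The 95% intervals of these 3 differences were -0.35 to 0.05, -0.51 to 0.09 and -0.29 to 0.56, and changes within those bounds cannot be told from none.

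**Figure D2:**
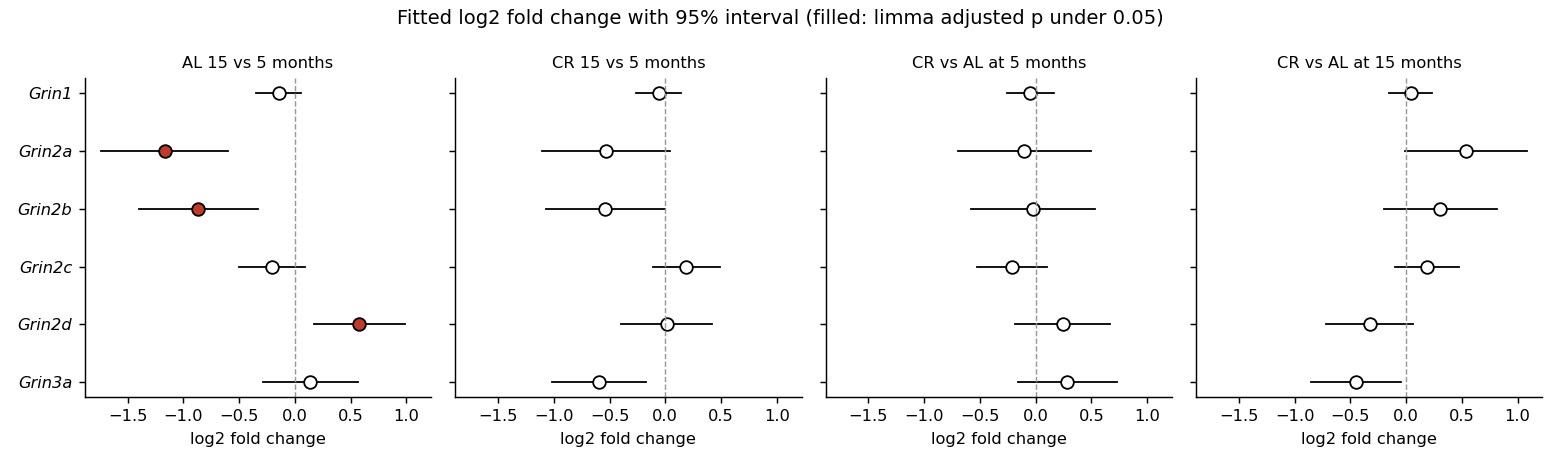
Fitted log2 fold change of each subunit gene in 4 comparisons, with lines for the 95% interval and filled points where the limma adjusted p was under 0.05. Grin2a, Grin2b and Grin2d are filled in the comparison of AL mice at 15 and 5 months, and no point is filled in the other comparisons.

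The markers of the dissected region moved with this comparison. Of 6 CA1 pyramidal neuron markers, 4 were lower in AL-fed mice at 15 months, among them Fibcd1 (-3.35) and Spink8 (-3.81) on the log2 scale, and the other two, Wfs1 (0.63) and Mpped1 (-0.16), were not called. Summed over the list, CA1 markers ranged from 231.5 to 506.9 FPKM at 5 months and from 180.1 to 278.3 FPKM at 15 months. Of 10 markers of neocortex and subiculum, which border CA1, 5 were higher at 15 months, including Cux2 (2.11) and Tbr1 (1.47), and 5 were not called, of which Nts (-1.03) and Fezf2 (-0.32) had lower values. Their sum ranged from 77.4 to 112.2 FPKM at 5 months and from 104.9 to 170.2 FPKM at 15 months. Markers shared by all neurons were not called, 0 of 4 by limma, and neither were those of interneurons, 0 of 6, with 0 of these 10 genes at an unadjusted p under 0.05. As for other lists, those of thalamus had 2 of 4 markers higher, those of dentate granule cells and choroid plexus 2 of 4 lower each, and those of CA3 (1 of 3), oligodendrocytes (1 of 4) and microglia (1 of 4) 1 lower each. Astrocyte markers gave 1 higher and 1 lower of 5, and neither of the lists of oligodendrocyte precursors and endothelium held a called gene. For age in CR mice the choroid plexus list had 4 of 4 lower and no gene of any other list was called. For diet at 15 months no marker of any list was called, where 0.742% of all genes were. The list medians of the log2 fold change, CR minus AL at that age, still differed. They ran from -0.46 for neocortex and subiculum to 1.37 for dentate granule cells, with 0.74 for CA1 pyramidal neurons. No marker was listed at 0 throughout a group, and the part of these shifts in the subunit results was not tested, apart from the fit described next. In bulk tissue, fewer cells of a type and less RNA per cell cannot be told apart.

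A region score was computed as the mean log2 level of the neocortex and subiculum markers minus that of the CA1 markers. It ranged from -3.79 to -2.25 in AL-fed mice at 5 months and from -1.50 to -0.08 at 15 months, without overlap. With this score as a covariate, none of the 6 subunit genes was called by limma for age in AL-fed mice, and none had an unadjusted p under 0.05. Over all 16978 genes tested, 0.0% were called in that fit, where 3502 genes were called without the covariate, and 12.1% had an unadjusted p under 0.05, so the loss of the calls was not particular to the subunit genes. Grin2a then differed by -0.33 (adjusted p = 0.768), Grin2b by -0.47 (adjusted p = 0.674) and Grin2d by 0.26 (adjusted p = 0.775). Since the score and age separated the AL libraries alike, their shares in these differences cannot be told apart in AL mice. Within the 15 month groups, 12 relations of a subunit gene with the score were computed (n = 6 each, exact permutation test, two-sided), and the lowest p was 0.0750 for Grin2c in CR mice, or 0.433 after adjustment over the 12. For Grin2a in AL mice at 15 months, Pearson's r was 0.13 (exact permutation p = 0.772) and Spearman's rho was 0.14 (exact permutation p = 0.803). For Grin2a in CR mice at 15 months, Pearson's r was -0.63 (exact permutation p = 0.183) and Spearman's rho was -0.60 (exact permutation p = 0.242). In the CR mice, without the 2 libraries farthest from the median score, r was 0.64. These were CR 15 months replicates 3 and 1, with scores of -3.64 and -2.64 and Grin2a at 25.6 and 21.2 FPKM. Leaving them out narrows the range of scores and leaves few libraries, so the change of sign cannot be read further.

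**Figure D3:**
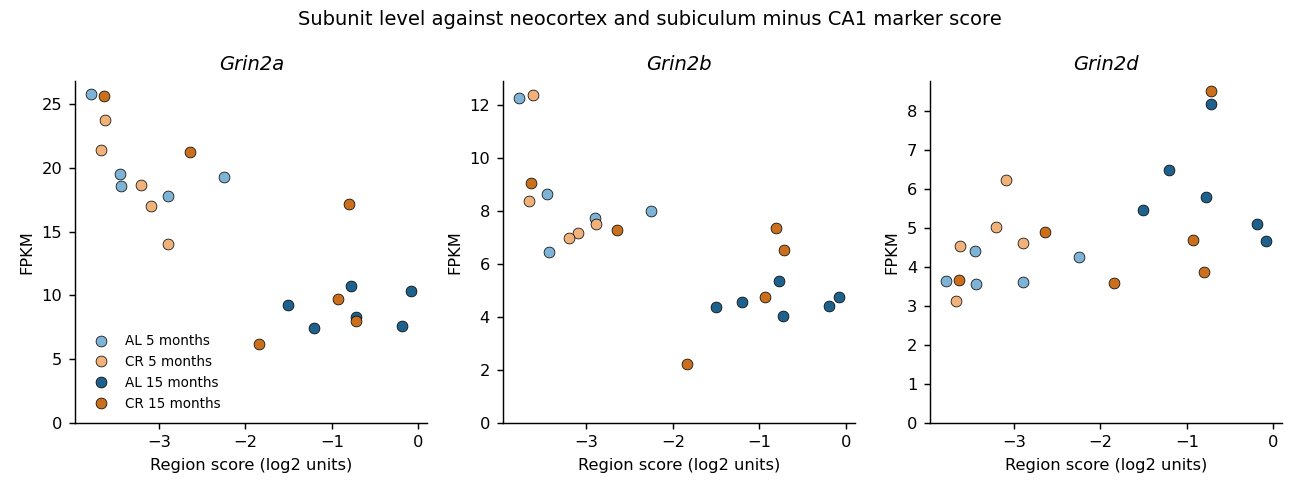
FPKM of Grin2a, Grin2b and Grin2d against the region score of the same library, in log2 units, where a higher score means more neocortex and subiculum marker mRNA relative to CA1 marker mRNA. AL libraries at 5 months have scores up to -2.25 and those at 15 months from -1.50 upwards, while CR libraries at 15 months span -3.64 to -0.72.

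The same ages were then compared in CR mice. None of the 6 subunit genes was called by limma between 15 and 5 months, and 2 had an unadjusted p under 0.05. Over all genes tested, 3.36% were called in this comparison and 18.0% had an unadjusted p under 0.05. The older CR mice differed widely among themselves, and their libraries overlapped the younger ones for every subunit gene, whereas 3.26% of all genes did not overlap.

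Grin2a had 17.0, 23.8, 14.0, 18.7 and 21.4 FPKM in CR mice at 5 months, and its lowest, median and highest values at 15 months were 6.18, 13.5 and 25.6 FPKM. Of the older CR libraries, 3 were below every younger one and 1 was above. The difference was -0.53 (SE 0.28, 95% interval -1.11 to 0.04, adjusted p = 0.320), and it was -0.32 without CR 15 months replicate 2. The highest Grin2a value was 4.15 times the lowest in this group, against 1.45 times in AL mice of the same age.

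Grin2b had 7.18, 12.4, 7.51, 6.99 and 8.38 FPKM in CR mice at 5 months, and 2.21, 6.90 and 9.06 FPKM as lowest, median and highest at 15 months. As for Grin2a, 3 of the 6 older libraries were below all younger ones. The difference was -0.54 (SE 0.26, 95% interval -1.07 to -0.0042, unadjusted p = 0.0484, limma adjusted p = 0.275). With each library left out in turn it ran from -0.67 to -0.27, the smallest in size being without CR 15 months replicate 2.

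Grin3a had 16.6, 11.0, 15.4, 15.0 and 7.37 FPKM in CR mice at 5 months, and at 15 months its lowest, median and highest were 6.58, 7.49 and 11.7 FPKM. All 6 older libraries were below the median of the younger ones, but 3 lay above the lowest of them, CR 5 months replicate 4. The difference of -0.60 (SE 0.20, 95% interval -1.02 to -0.17) had an unadjusted p of 0.00811 and a limma adjusted p of 0.116. Without CR 5 months replicate 4 it was -0.79 and Grin3a was called (adjusted p = 0.0280). Grin1, Grin2c and Grin2d differed by -0.06, 0.19 and 0.01, all with adjusted p above 0.5.

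Diet was compared within each age, using the same libraries as the comparisons of age, so the results are not independent of those above. At 5 months none of the 6 subunit genes was called by limma between CR and AL mice, and none had an unadjusted p under 0.05. Over all genes tested 0.0% were called, and 4.65% had an unadjusted p under 0.05. Differences, CR minus AL, ran from -0.21 for Grin2c (95% interval -0.52 to 0.10) to 0.28 for Grin3a (95% interval -0.16 to 0.73). For Grin2a the difference was -0.10 (95% interval -0.70 to 0.50), and for Grin2b it was -0.02 (95% interval -0.58 to 0.53). Changes within these bounds cannot be told from none.

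At 15 months none of the subunit genes was called between CR and AL mice, and 1 had an unadjusted p under 0.05, where 0.742% of all genes were called and 17.1% had an unadjusted p under 0.05. Grin2a averaged 14.7 ± 7.88 FPKM in CR mice and 8.94 ± 1.41 FPKM in AL-fed mice (SD, n = 6 each). Of the CR libraries, 3 were above every AL library, 1 was below every one, and the other two lay between. The difference was 0.53 (SE 0.26, 95% interval -0.01 to 1.08, limma adjusted p = 0.302), and across the 12 fits without 1 library it ranged from 0.34, with CR 15 months replicate 3 left out, to 0.74 with no call.

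Grin2b averaged 6.20 ± 2.40 FPKM in older CR mice against 4.59 ± 0.443 FPKM in older AL mice (SD, n = 6 each). Here 4 CR libraries were above all AL libraries and 1 was below all. Its difference was 0.31 (SE 0.24, adjusted p = 0.537), but it was 0.57 with CR 15 months replicate 2 left out and 0.18 with replicate 3 of that group left out. Grin2d averaged 4.86 ± 1.86 FPKM in CR and 5.93 ± 1.25 FPKM in AL mice (SD, n = 6 each), a difference of -0.33 (SE 0.19, adjusted p = 0.383). Only CR 15 months replicate 0, at 8.49 FPKM, was above the AL median of Grin2d.

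Grin3a was the 1 gene with an unadjusted p under 0.05 for diet at 15 months. It averaged 8.48 ± 2.14 FPKM in CR and 11.5 ± 1.81 FPKM in AL mice (SD, n = 6 each). The difference was -0.45 (SE 0.19, 95% interval -0.86 to -0.05, unadjusted p = 0.0301, limma adjusted p = 0.243). Grin1 and Grin2c differed by 0.04 and 0.19 (adjusted p = 0.853 and 0.502). In its spread, Grin1 ran from 120.0 to 197.7 FPKM over the older CR mice, but only from 134.9 to 154.2 FPKM over AL mice of that age. CA1 markers summed to between 96.1 and 436.5 FPKM in the older CR libraries, a wider range than the 180.1 to 278.3 FPKM of AL mice of that age. The region score overlapped between the diets at 15 months, and its part in the diet comparison of Grin2a was not tested beyond the fit with the score as a covariate. In that fit the difference of Grin2a was 0.18 in place of 0.53 and that of Grin2b 0.14 in place of 0.31, and 5 genes were called in all (0.0294%) in place of 126.

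Whether the change with age differed by diet was tested as an interaction, in which time under restriction also differed between the ages. By limma 0 of 6 subunit genes were called, 1 had an unadjusted p under 0.05, and over all genes 0.0% were called while 7.66% had an unadjusted p under 0.05. For Grin3a the change with age was 0.73 lower on the log2 scale in CR than in AL mice, an interaction of -0.73 (SE 0.29, unadjusted p = 0.0187, adjusted p = 0.628). The interaction of Grin2a was 0.64 (SE 0.39, 95% interval -0.17 to 1.45, adjusted p = 0.706), that of Grin2b 0.33 (SE 0.36, adjusted p = 0.829) and that of Grin2d -0.57 (SE 0.28, adjusted p = 0.654). The fall of Grin2a and Grin2b in AL mice is thus not shown to differ from the change in CR mice.

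Ordered by mean level, Grin2a ran from AL at 5 months (20.2 FPKM) through CR at 5 months (19.0) and CR at 15 months (14.7) to AL at 15 months (8.94). Grin2b kept that order, with 8.62, 8.49, 6.20 and 4.59 FPKM. No neighbouring groups in these orders passed the test, and the contrast that did was between the first and the last. Grin2d was ordered from AL at 15 months (5.93 FPKM) through CR at 15 months (4.86) and CR at 5 months (4.71) to AL at 5 months (3.89), and of the 4 comparisons run between groups the one that was called was again between the ends. For Grin3a the highest mean was that of CR at 5 months (13.1 FPKM) and the lowest that of CR at 15 months (8.48), and none of the 4 comparisons between groups was called. Group means of Grin1 and Grin2c lay between 145.2 and 160.8 FPKM and between 11.9 and 13.8 FPKM, likewise with no call.

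The Grin2a to Grin2b ratio was computed in each library from both FPKM values, and Grin2a was the higher gene in all 22 libraries. In AL-fed mice at 5 months the ratio was 2.42, 2.30, 2.10, 2.88 and 2.25, a mean of 2.39 ± 0.297 (SD, n = 5). CR mice at 5 months had 2.37, 1.92, 1.86, 2.67 and 2.55, a mean of 2.27 ± 0.367 (SD, n = 5). Both younger groups covered about the same range.

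At 15 months the lowest, median and highest ratios were 1.61, 2.03 and 2.18 in AL-fed mice, with a mean of 1.95 ± 0.227 (SD, n = 6). In CR mice they were 1.22, 2.56 and 2.92, with a mean of 2.36 ± 0.649 (SD, n = 6). Of the older AL libraries, 4 of 6 were below all younger AL libraries. CR 15 months replicate 0 had the lowest ratio of all 22 libraries, and 4 of the other CR libraries were above every AL library of that age.

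The mean log2 ratio of AL-fed mice was lower by 0.30 at 15 months, written as a change of -0.30 (exact two-sided permutation test, p = 0.0108, the smallest possible being 0.00216). Adjusted over the 5 comparisons of the ratio, this p was 0.0541, which misses the threshold of 0.05. In CR mice the change with age was 0.01 (exact permutation p = 0.976). CR minus AL was -0.08 at 5 months (exact permutation p = 0.563) and 0.23 at 15 months (exact permutation p = 0.288), and the interaction was 0.31 (exact permutation p = 0.219). For the interaction, diet labels were permuted within each age. Its p is therefore exact only if diet had no effect at either age. With each of the 12 libraries at 15 months left out in turn, CR minus AL at that age ran from 0.15 to 0.40. The unadjusted exact permutation p lay between 0.00866 and 0.498. The largest difference, 0.40 (unadjusted exact permutation p = 0.00866), was without CR 15 months replicate 0. Without that library the interaction was 0.48 (unadjusted exact permutation p = 0.0195).

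**Figure D4:**
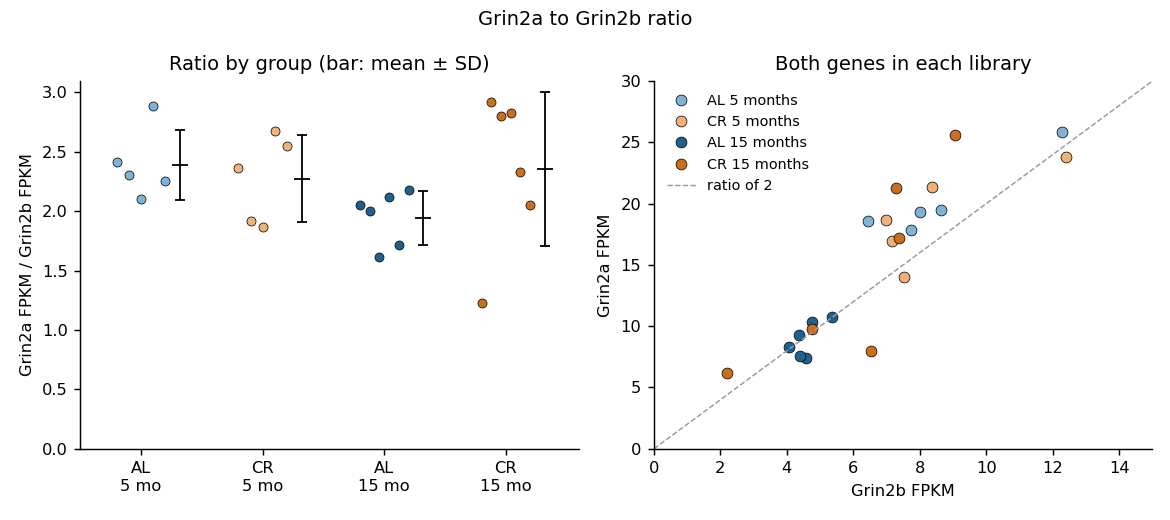
On the left, the Grin2a to Grin2b ratio of FPKM in each mouse by group, with bars for mean ± SD; on the right, both FPKM values in each library with a dashed line at a ratio of 2. AL mice at 15 months have ratios from 1.61 to 2.18, and CR mice of that age run from 1.22 to 2.92.

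As shares of the summed FPKM of Grin2a, Grin2b, Grin2c and Grin2d, the family differed in make-up between young and old AL mice. These shares come from the levels above and are given with no test. Grin2a held 43.3% ± 1.80 at 5 months (SD, n = 5) and 28.5% ± 4.99 at 15 months (SD, n = 6) in AL-fed mice. Grin2b held 18.4% ± 2.60 and 14.7% ± 1.97, Grin2c 29.9% ± 3.46 and 38.1% ± 4.71, and Grin2d 8.45% ± 1.24 and 18.7% ± 2.72. The share of Grin2d in older AL mice, 16.0% at least, was above its share in all younger AL mice, 9.62% at most. In CR mice the share of Grin2a was 42.8% ± 4.42 at 5 months (SD, n = 5) and 35.2% ± 11.5 at 15 months (SD, n = 6).

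The order of the genes within a library changed along with these shares. Grin2a was above Grin2c in 5 of 5 AL libraries at 5 months but in 1 of 6 at 15 months, and in 5 of 5 and 3 of 6 CR libraries. Grin2b was above Grin2d in 5 of 5 AL libraries at 5 months and in 1 of 6 at 15 months, against 5 of 5 and 4 of 6 in CR mice. The 4 Grin2 genes together averaged 46.5 ± 5.26 FPKM in younger AL libraries and 44.1 ± 6.32 FPKM in younger CR libraries (SD, n = 5 each). In the older libraries they averaged 31.6 ± 3.73 FPKM with AL feeding and 39.5 ± 10.3 FPKM with CR (SD, n = 6 each). Grin1 was 3.48 times that sum in AL mice at 5 months and 4.63 times at 15 months, and 3.57 and 3.95 times in CR mice.

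**Figure D5:**
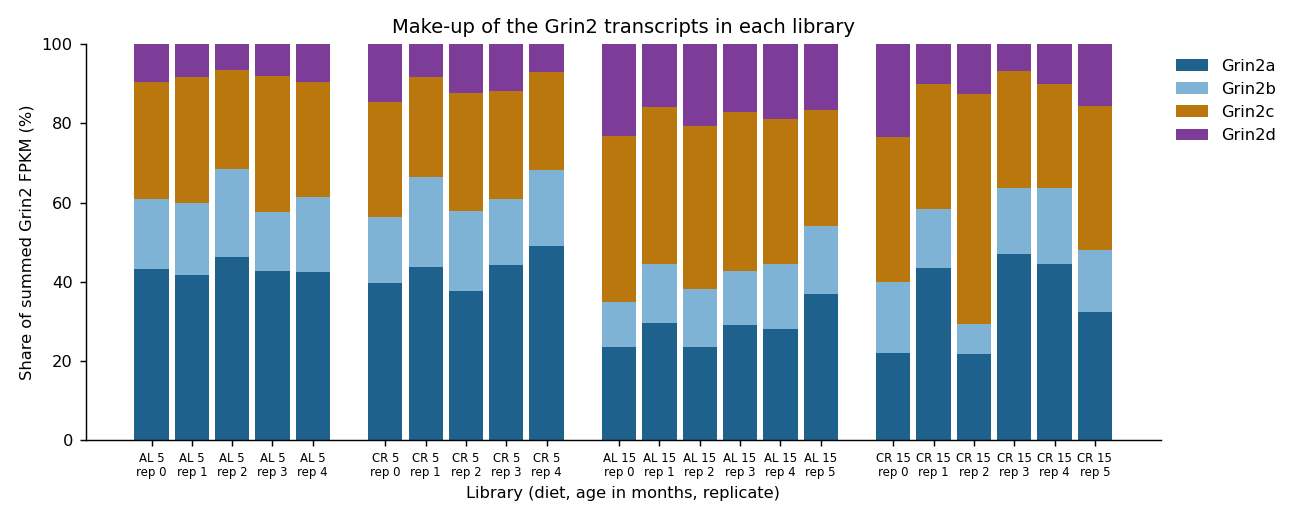
Percent of the summed FPKM of Grin2a, Grin2b, Grin2c and Grin2d held by each gene, with 1 stacked bar per library labelled by diet, age in months and replicate. The Grin2d segment reaches 9.62% at most in AL libraries at 5 months and is at least 16.0% in those at 15 months.

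Genes that act with the receptor were followed through a list of 31, of which 29 were tested. Dao was below the mean FPKM minimum. In AL-fed mice 10 of the 29 were called between 15 and 5 months, or 34.5% where 20.6% of all genes were called. They divided into 5 higher and 5 lower, and the list's median log2 fold change was -0.21, beside -0.0018 over all genes tested.

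Scaffold and transport genes gave 3 higher and 1 lower of 11. Dlg1, a scaffold of the membrane-associated guanylate kinase family that binds GluN2 tails, rose by 0.74 (SE 0.13, limma adjusted p = 0.000831). Dlg3, a scaffold of the same family, fell by 0.40 (SE 0.09, adjusted p = 0.00320). Kinases and phosphatases gave 1 higher and 3 lower of 8. Ptk2b, a calcium-activated tyrosine kinase that acts upstream of Src, fell by 0.98 (SE 0.24, adjusted p = 0.00706), and Fyn, a kinase that phosphorylates GluN2 tails, fell by 0.19 (SE 0.05, adjusted p = 0.0102).

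Receptor partners and downstream genes gave 1 higher and 1 lower of 6 tested. Nsmf, which carries signals from NMDA receptors to the nucleus, fell by 0.80 (SE 0.19, adjusted p = 0.00552). Rasgrf2, a calcium-regulated Ras exchange factor, rose by 0.84 (SE 0.21, adjusted p = 0.00988). Of the genes that supply or clear the co-agonists glycine and D-serine, 0 of 4 tested were called by limma, and Srr, the enzyme that makes D-serine, was the 1 gene of them at an unadjusted p under 0.05 (-0.24, adjusted p = 0.0896). With the region score as a covariate, 0 of the 29 were called in this comparison by limma, as were 0 of all 16978 genes. In that fit 4 of the 29 had an unadjusted p under 0.05, where 12.1% of all genes did.

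In CR mice 1 of the 29 was called between the ages, or 3.45%, about the 3.36% of all genes. That gene was again Dlg1, which rose by 0.56 (SE 0.13, adjusted p = 0.0178), and without CR 5 months replicate 4 no gene of the list was called. For diet at 5 months and for the interaction 0 of 29 were called by limma, as were 0.0% of all genes. At an unadjusted p under 0.05 were 0 and 6 of the 29, beside 4.65% and 7.66% of all genes. For diet at 15 months 10 of the 29 had an unadjusted p under 0.05, a larger share than the 17.1% of all genes. Of these, 1 was called (3.45% of the 29, beside 0.742% of all genes). That gene was Ptpn5, which encodes a tyrosine phosphatase that promotes removal of NMDA receptors from the surface, and it was lower in CR mice by a log2 fold change of -0.46 (SE 0.10, adjusted p = 0.0399). Over the alternatives and the fits without 1 library, this count ran from 0 to 4, and it was 0 in 8 of the 12 fits without 1 library.

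The genes lie on separate chromosomes (GRCm38, the build called mm10, with GENCODE release M21 gene models). Grin1 is on chromosome 2 from 25291181 to 25319187, Grin2a on chromosome 16 from 9567898 to 9995560, and Grin2b on chromosome 6 from 135713233 to 136173511. Grin2c is on chromosome 11 from 115249169 to 115267243, Grin2d on chromosome 7 from 45831883 to 45878378, and Grin3a on chromosome 4 from 49661611 to 49845744, all 6 on the minus strand. The FPKM values cover whole genes, exons and UTRs together. Reads from this library kit do not mark their strand, so those of Grin1 cannot be told from its antisense gene Grin1os over 1307 shared exon bases, nor those of Grin2d from antisense Gm45441 over 643. Grin2b shares fewer exon bases with genes on the opposite strand, 143 with Gm14329, 86 with Gm22892 and 49 with Gm26653. Grin2c shares 91 with Gm25837. Grin3b, outside these 6, shares 1059 with opposite-strand Tmem259, which averaged 53.5 FPKM. Among the subunit genes, 0 of the 50-base windows of their transcripts occurred in another subunit gene. Of the Grin2a windows 11.6% occurred in another gene, 2076 of these 2079 in Gm7328, so reads from there could be divided between both genes.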

How the data were processed

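CA1 tissue was microdissected under a microscope and mRNA libraries were made with a kit that does not mark strand, 1 per mouse, and sequenced as paired ends. The authors used TopHat for alignment to mm10, marked and dropped probable PCR duplicates by Picard, and deposited FPKM values from Cufflinks, with its fragment bias and multi-read corrections switched on. Tool versions and the gene annotation are not given in the sources used here. All value columns of the deposited FPKM matrix were used. FPKM hold no read counts, and read depth is given only as an average over samples, so counting error was not computed.

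Tests used log2(FPKM + 0.1) of 16978 genes whose mean FPKM reached 0.1. One linear model held all 4 groups (limma 3.58.1, R 4.3.3, eBayes with an intensity trend, two-sided), and p-values were adjusted by Benjamini-Hochberg within each of 5 contrasts. The Grin2a to Grin2b ratio used FPKM without a pseudocount and exact two-sided permutation tests over libraries in Python 3.11.15 with scipy 1.17.1. On simulated data with 200 genes altered by a log2 change of 1, the fit recovered 78.5% for age in AL mice, 81.5% for age in CR mice, 79% for diet at 5 months and 84.5% for diet at 15 months, over 16978 genes. The noise was drawn separately for each gene, without shifts shared by many genes. A change of 1 is also larger than any diet difference of a subunit gene above, so these values do not give the recovery of such differences. Coordinates and overlaps were taken from release M21 of GENCODE (GRCm38, the assembly of mm10).

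The subunit genes, the list of 31 partner genes, the 13 marker lists with 59 genes and the tests were chosen with earlier results of these data known. Of the partner genes, 1 is not reported here. Partner genes are named where they pass the test, at most 6 per contrast, by lowest adjusted p. For each subunit gene, the 3 genes most like it are named by Pearson's correlation over libraries with group means removed. Alternatives were other pseudocounts, filters and scalings, no trend, a fit of the compared groups only, a replicate block, the region score as a covariate, and each library left out in turn.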

Additional observations from a re-analysis of the deposited data

Results flagged for a closer look

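In each group the highest and lowest library of every subunit gene and of the Grin2a to Grin2b ratio was compared with the nearest other library by Dixon's criterion. Of 28 groups of values 3 held a library far from the rest, where chance alone marks about 1 in 20 groups. Grin2a had 25.8 FPKM in AL 5 months replicate 2, with 19.5 FPKM as the next value. Grin2b had 12.4 FPKM in CR 5 months replicate 1, with 8.38 FPKM as the next. Grin2d had 8.49 FPKM in CR 15 months replicate 0, with 4.90 FPKM as the next. That library also had the lowest Grin2a to Grin2b ratio of all 22, but its ratio was not marked by this criterion. Without AL 5 months replicate 2 the change of Grin2a with age in AL mice was smallest in size, at -1.08, and it was still called.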

How the results depend on the processing

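In AL mice the count of called subunit genes for age was 3 as reported, 2 with a common median or quantile normalization and 0 with the region score as a covariate, a fit that called 0 of all 16978 genes by limma (2061 at an unadjusted p under 0.05). The other settings that kept every library gave 3. With each library left out in turn it ran from 1 to 3 and was under 3 in 9 of 11 fits, the 1 being without AL 5 months replicate 2. Grin2a lost its call only with the covariate (-0.33), and Grin2b with the covariate (-0.47) and without AL 5 months replicate 2 (-0.73). Grin2d lost it with the covariate (0.26), with a common median (0.53, adjusted p = 0.0586), with quantile normalization (0.49, adjusted p = 0.0834) and in 9 of 11 leave-outs (0.48 to 0.64). In CR mice the count for age was 0, and 0 to 1 over the leave-outs. For diet at either age and for the interaction it was 0 in every setting run. The partner list count for age in AL mice ran from 0, with the covariate, to 14.

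Differences that changed direction were all of genes not called. With the region score as a covariate these were, for age in AL mice, Grin1 (0.15), Grin2c (0.28) and Grin3a (-0.17); for age in CR mice Grin1 (0.13), Grin2a (0.00027) and Grin2d (-0.19); for diet at 15 months Grin1 (-0.085) and Grin2c (-0.019); and for the interaction Grin1 (-0.021). With quantile normalization Grin2d changed by -0.0012 with age in CR mice. With 1 library left out, Grin2a and Grin2b for diet at 5 months reached 0.00068 and 0.11 as highest values (lowest -0.19 and -0.17). Likewise for age in CR mice Grin1 ran from -0.14 to 0.0052 and Grin2d from -0.16 to 0.12, and for diet at 15 months Grin1 ran from -0.040 to 0.10. The cause was not tested.

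The log2 ratio of Grin2a to Grin2b, without 1 library, ranged from -0.34 to -0.23 for age in AL mice (unadjusted p up to 0.0476), from -0.062 to 0.19 for age in CR mice, from -0.14 to -0.010 for diet at 5 months, from 0.15 to 0.40 for diet at 15 months and from 0.23 to 0.48 for the interaction. With group medians the diet difference at 5 months was 0.040, opposite in sign.

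The replicate numbers do not appear to pair mice: over 31 same-numbered pairs, deviations from the group means correlated between -0.139 and 0.163, with 2 above 0.1. With the number as a replicate block, 3 subunit genes were called for age in AL mice (Grin2a -1.15, Grin2b -0.85, Grin2d 0.61) and no subunit gene gained or lost a call. Over all genes the block raised the calls for diet at 15 months from 126 to 323.

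Precision is limited by 5 or 6 mice per group, and the read depth of each library is not known. Nothing in the labels says when or in which batch a mouse was dissected, so no value within a batch was computed. For the interaction no fit of fewer groups was possible.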

Other observations

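Across the 22 libraries, with the 4 group means removed, Grin2a and Grin2b varied together (r = 0.80), and so did Grin2d and Grin3a (r = 0.57). Grin1 went with Grin2a (r = 0.57) and with Grin2b (r = 0.48), whereas Grin2c had r between -0.20 and 0.32 with the other subunit genes. These are descriptions over libraries that share one scaling, and no test was made. With the region score the same correlation was -0.59 for Grin1, -0.55 for Grin2a, -0.28 for Grin2b and -0.62 for Grin2c, against 0.30 for Grin2d and 0.28 for Grin3a.

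Among the 13839 genes whose mean FPKM reached 1, the pattern most like that of Grin2a was shown by Kcnq3 (r = 0.946), a potassium channel subunit, followed by Epha6 (0.935) and Adcy9 (0.920), an ephrin receptor and an adenylyl cyclase. For Grin2b the closest were Srgap3 (0.895), Ksr2 (0.895) and Gatad2b (0.870), and for Grin1 they were Cacnb1 (0.936), a calcium channel subunit, Sez6l2 (0.889) and Acap3 (0.888). Grin2c was closest to Bcan (0.919), which encodes the matrix protein brevican, then to Med25 (0.898) and Btbd2 (0.879). Grin2d was closest to Gpr25 (0.902), Hcn3 (0.899) and Rasip1 (0.887). Grin3a was closest to Slc7a3 (0.848), Hrh3 (0.832), a histamine receptor, and Gpsm1 (0.821).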
